A study of Mus musculus with 9 samples.

Results

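Lungs of mice that had been exposed to cigarette smoke and lipopolysaccharide and treated with Qing-Jin-Hua-Tan decoction (QJHTD), a Chinese herbal formula, were set against lungs of control mice to see which genes stayed changed under treatment. The genes compared were those listed at 1 TPM or more in at least 3 of the 6 libraries, which held for 15721 of the 56263 genes in the table. TPM is the share of a library that a gene takes after its reads are divided by its length. All mice were male wild-type BALB/c, an inbred strain, 6 to 8 weeks old when purchased. The QJHTD group (libraries Q1 to Q3) had lipopolysaccharide, a bacterial endotoxin, put into the trachea (20 µg on days 1 and 14) and cigarette smoke on the other days of a 42-day experiment, 3 times daily for 30 min from 6 cigarettes, with the decoction by mouth 1 h earlier at the highest of 3 doses in the study. The model group (M1 to M3) had the same exposure with vehicle in place of the decoction. The control group (C1 to C3) had vehicle and no exposure. Exposure and decoction therefore differ together between QJHTD and control lungs and cannot be told apart in this comparison, and the model libraries are given beside it. The study kept 8 mice per group, and no source states that each library came from a different mouse, so p-values measure the spread between these libraries, which may be partly technical.

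The lung holds an alveolar surface of flat type 1 cells and surfactant-making type 2 cells, wrapped in capillaries, and airways lined by secretory club cells and ciliated cells. Smoke and endotoxin are known to draw neutrophils and monocytes from the blood, and chronic airway inflammation can be accompanied by lymphoid aggregates with plasma cells. Endotoxin is sensed by Toll-like receptor signalling through NF-kappaB, which induces cytokines, chemokines and acute-phase proteins. In RNA from whole tissue, fewer cells of a type and less RNA per cell cannot be told apart.

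Before testing, antibody and T-cell receptor segments (264 of the 15721 genes), Scgb1a1, 4 hemoglobin genes and 15 mitochondrially encoded genes were taken out, and TPM of the other genes were rescaled to the same total in every library. The segments took 39.4% ± 3.71 of the deposited TPM in QJHTD lungs, 38.6% ± 3.75 in model lungs and 0.456% ± 0.155 in control lungs (SD, n = 3 each). Of the 264, 243 lay higher in all 3 QJHTD libraries than in any control library, beside 24.6% of the genes tested below. The table holds 702 segments, and a segment could pass the filter through the 3 QJHTD libraries alone. The count of 243 was therefore partly set by the filter and is no separate result. Scgb1a1, the main secretory protein of club cells, took 1.73% ± 0.325 in QJHTD lungs, 2.08% ± 1.00 in model lungs and 22.4% ± 1.27 in control lungs. Hemoglobin genes took 0.174% in QJHTD and 1.28% in control lungs, and mitochondrially encoded genes 3.14% in QJHTD and 7.92% in control lungs. For each of these 4 shares the libraries of QJHTD and control lungs did not overlap, and the exact two-sided permutation p was 0.1, the smallest that 3 libraries against 3 allow. The removal multiplied the remaining values by 1.81 on average in QJHTD libraries and by 1.47 in control libraries. TPM below are these recomputed values, and their depth in reads is unknown.

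Of the 15437 genes tested with limma on log2(TPM + 1), 3510 (22.7%) were higher and 6307 (40.9%) lower in QJHTD than in control lungs at an adjusted p under 0.05, together 63.6% of all genes. A fold change is the difference on this log2 scale, which understates the change of low genes. At a change of at least 2-fold, 1763 genes (11.4%) were higher and 2405 (15.6%) lower. All 3 QJHTD libraries lay above all 3 control libraries for 3805 genes (24.6%) and below them for 6983 (45.2%). The median over all genes was −0.22, and the counts and medians of gene lists below stand beside these shares and this median. The balance of directions depended on the scaling, because 3579 genes were lower and 5663 higher with Scgb1a1 left in the total, 4557 lower and 4773 higher after median-ratio rescaling, and 8640 lower and 2641 higher in the deposited TPM. The median over all genes was then 0.12, −0.014 and −0.45 in that order, and −0.10 after quantile scaling. List counts and medians under another scaling stand beside those of all genes under the same scaling. Of the called genes, 2394 were higher and 3574 lower under each of the 5 other scalings as well, and these are called scaling-independent below.

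**Figure D1:**
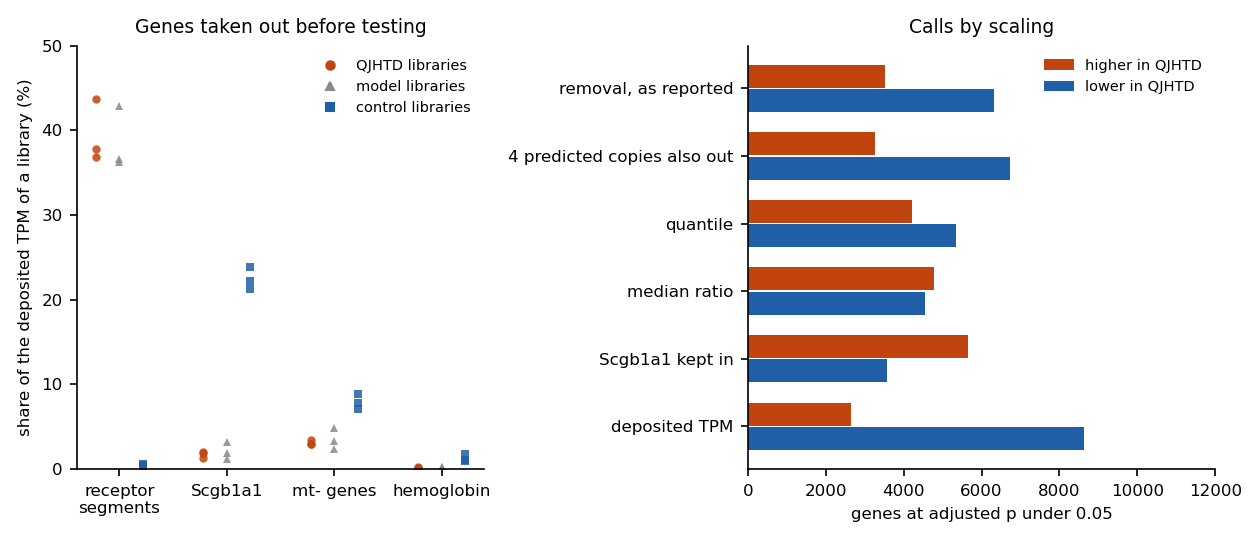
Left, share of the deposited TPM (%) of each library taken by receptor segments, Scgb1a1, mitochondrially encoded (mt-) genes and hemoglobin genes, with 1 point per library. Right, number of genes called higher (upper bar of a pair) and lower (lower bar) in QJHTD than in control lungs under each scaling; the lower calls outnumber the higher ones with the removal used here (6307 against 3510) and are the fewer with Scgb1a1 kept in (3579 against 5663).

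The controls stood apart from all exposed libraries. On principal components the first axis carried 76.3% of the variance and separated the 3 control libraries from the 6 others, and the second held 5.03%. Across genes, QJHTD libraries correlated with each other at 0.970 to 0.974 and with control libraries at 0.799 to 0.821, genes not being independent replicates. The lung markers Sftpc and Ager were present in every library, Sftpc at 23308, 24479 and 22765 TPM in the QJHTD libraries and 40381, 47934 and 31177 TPM in the control libraries. Against the model group, 2 genes were called in QJHTD lungs (0.013%).

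The largest rise was that of Saa3, an acute-phase serum amyloid A made in inflamed tissue (chromosome 7, 46711998 to 46715700, GRCm38). It reached 5547, 4290.1 and 8584 TPM in the QJHTD libraries, against 9.80, 17.9 and 12.4 TPM in the control libraries, and no library of a group came near the other group (log2 fold change 8.72 ± 0.36 (SE), adjusted p = 2.7e-07 from limma). Acod1, which makes the antimicrobial metabolite itaconate in activated macrophages (chromosome 14, 103046977 to 103056573), had 238, 290.3 and 300.3 TPM in the QJHTD libraries, against 0.0869, 0.399 and 0.523 TPM in the control libraries (log2 fold change 7.70 ± 0.14 (SE), adjusted p = 1.3e-08 from limma). Slpi, a secreted inhibitor of neutrophil elastase, had 8225, 6177 and 7289 TPM in the QJHTD libraries, against 57.3, 62.0 and 68.3 TPM in the control libraries, a log2 fold change of 6.82 ± 0.14 (adjusted p = 2.3e-08, limma). Il1rn, the natural antagonist of the interleukin-1 receptor, had 422, 359 and 484 TPM in the QJHTD libraries, against 3.16, 3.70 and 4.19 TPM in the control libraries and a log2 fold change of 6.49 ± 0.16 (adjusted p = 3.8e-08, limma). The chemokine Ccl4, which attracts monocytes, and Asprv1, an aspartic protease first known from skin, rose by 6.33 and 6.47, and Sprr2a2, a small proline-rich protein, by 6.75 against controls of which 2 were listed at 0. In each of these genes every QJHTD library lay far above every control library. The other 5 of the 12 were stefins, inhibitors of cysteine proteases. Stfa2 had 165, 137 and 212 TPM in the QJHTD libraries, against 0, 0.531 and 0 TPM in the control libraries. Stfa3 had 87.5, 78.9 and 126 TPM in the QJHTD libraries, and Cstdc6 had 101, 75.1 and 112 TPM, and both were listed at 0 in all 3 control libraries. Reads of the near-identical stefin genes on chromosome 16 may be divided among them by the authors' quantification, so that single stefins are uncertain.

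The promoters of Saa3 and Acod1 are shown because these genes head the rises, and that of Bpifa1 because it heads the falls of protein-coding genes. Each run is the RefSeq sequence (GRCm38.p6) from 250 bases before to 50 bases after the start of the gene, with matches to the motifs searched in capitals. Saa3 is at chr7:46715627-46715926, minus strand, with a match to NF-kappaB (GGNNNTTCC) and to C/EBP (TTNNGCAA). Acod1 is at chr14:103046762-103047061, plus strand, with a match to NF-kappaB. Bpifa1 is at chr2:154142630-154142929, plus strand, with a match to AP-1 (TGANTCA).
Saa3: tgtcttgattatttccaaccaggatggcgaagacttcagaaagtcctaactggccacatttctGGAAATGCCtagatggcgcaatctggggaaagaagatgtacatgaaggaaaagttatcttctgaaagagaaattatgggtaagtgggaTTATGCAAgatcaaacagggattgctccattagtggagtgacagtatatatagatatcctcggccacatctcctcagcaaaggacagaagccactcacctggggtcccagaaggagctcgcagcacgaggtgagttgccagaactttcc
Acod1: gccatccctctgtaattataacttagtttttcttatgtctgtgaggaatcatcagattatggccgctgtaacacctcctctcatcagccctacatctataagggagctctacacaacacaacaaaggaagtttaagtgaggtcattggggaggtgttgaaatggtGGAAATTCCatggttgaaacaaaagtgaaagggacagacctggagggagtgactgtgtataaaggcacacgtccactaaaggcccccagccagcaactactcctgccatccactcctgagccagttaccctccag
Bpifa1: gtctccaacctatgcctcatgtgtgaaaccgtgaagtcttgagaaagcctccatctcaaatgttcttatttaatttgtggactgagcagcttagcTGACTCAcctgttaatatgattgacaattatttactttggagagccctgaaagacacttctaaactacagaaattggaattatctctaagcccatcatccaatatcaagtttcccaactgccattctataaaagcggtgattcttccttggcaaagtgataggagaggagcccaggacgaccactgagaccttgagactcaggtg
On both strands of 27025 RefSeq promoters of this length, the NF-kappaB letters were found in 18.4%, the C/EBP letters in 10.8% and the AP-1 letters in 7.93%, the STAT letters TTCNNNGAA in 8.47%, the forkhead letters TGTTTAC in 3.55% and the TEAD letters GGAATG in 14.6%. A match describes the letters of this window and is not a site of binding. Motif shares of higher and lower genes were not compared, because 72.0% of the tested genes had an entry.

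The largest falls were of other kinds. Bpifa1, an antimicrobial protein secreted by the upper airway epithelium, had 6.11, 13.3 and 29.8 TPM in the QJHTD libraries, against 170.4, 1162 and 4033 TPM in the control libraries (log2 fold change −5.99 ± 1.12 (SE), adjusted p = 0.0015 from limma). The groups did not overlap, but the control libraries differed widely among themselves. Npr3, the clearance receptor of natriuretic peptides, had 1.66, 2.49 and 3.18 TPM in the QJHTD libraries, against 52.8, 90.7 and 52.1 TPM in the control libraries (log2 fold change −4.24 ± 0.24 (SE), adjusted p = 1.1e-06 from limma). The glutathione transferase Gsta2 changed by −4.02 (log2; adjusted p = 5.4e-06, limma). n-R5s105, a 5S ribosomal RNA gene, was listed at 0 in all 3 QJHTD and all 3 model libraries and at 68.5, 26.6 and 444 TPM in the control libraries, and the library preparation was for messenger RNA. A further 7 of the 12 are genes of heart or skeletal muscle (Mb, Tnni3, Myl7, Ckm), of fat cells (Cfd, Car3) and the iron hormone Hamp, which is also made in the heart. In all 7, Q1 was the lowest and Q3 the highest QJHTD library, for instance Mb, myoglobin, with 0.193, 2.80 and 28.2 TPM in the QJHTD libraries, against 44.5, 121 and 242 TPM in the control libraries (log2 fold change −4.44 ± 1.14 (SE), adjusted p = 0.0081 from limma).

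**Figure D2:**
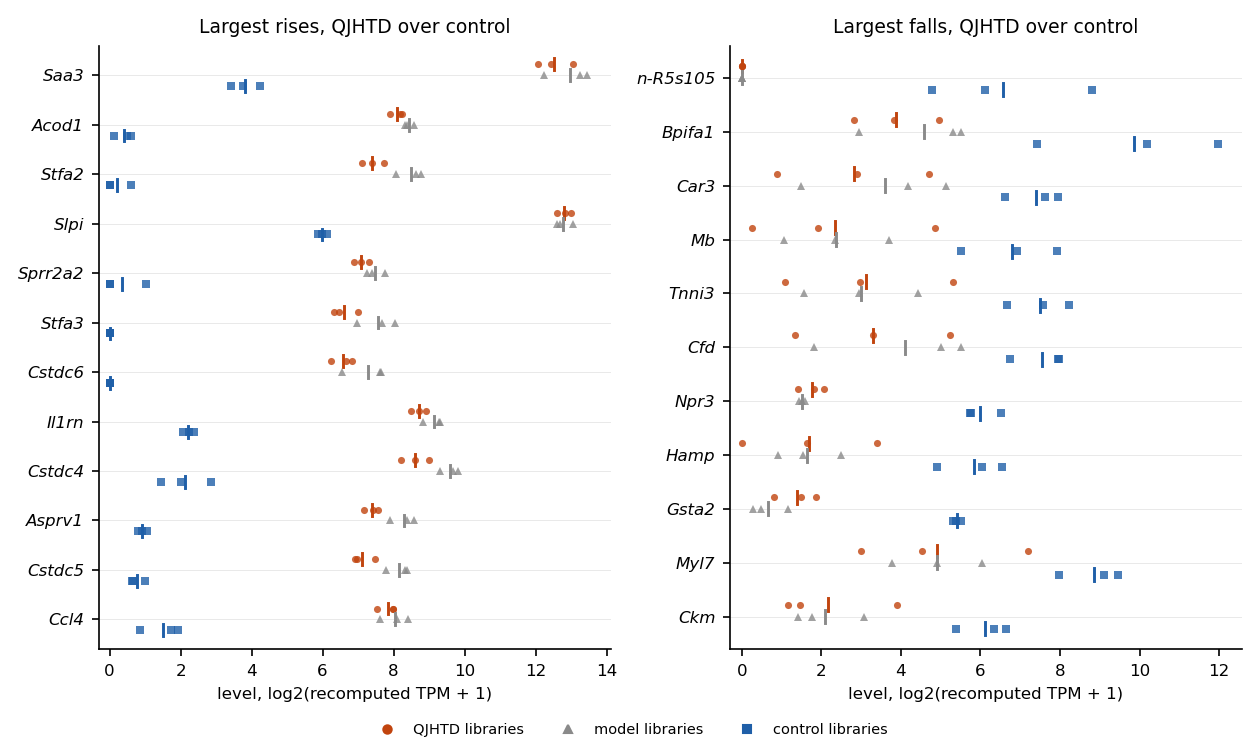
Levels of the 12 genes with the largest rises (left) and of 11 of the 12 with the largest falls (right), as log2(recomputed TPM + 1), with 1 point per QJHTD, model and control library. QJHTD points lie beside model points and away from control points; among the falls, Mb, Tnni3, Myl7, Cfd and Car3 spread widely over the QJHTD libraries.

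Cell type lists place these changes. All 19 neutrophil genes tested were higher in QJHTD lungs (median 3.95, 4.17 above the median of all genes), 18 of them scaling-independent. S100a8, a calprotectin subunit of the neutrophil cytosol, had 4138, 2428 and 4632 TPM in the QJHTD libraries, against 65.9, 139.9 and 62.3 TPM in the control libraries (log2 fold change 5.42 ± 0.41 (SE), adjusted p = 6.4e-06 from limma). The granule protein Lcn2, which binds bacterial siderophores, had 5521, 5147 and 6191 TPM in the QJHTD libraries, against 61.8, 99.1 and 124 TPM in the control libraries (log2 fold change 5.92 ± 0.24 (SE), adjusted p = 2.6e-07 from limma). Ly6g, the surface antigen that defines mouse neutrophils, had 43.8, 41.8 and 43.6 TPM in the QJHTD libraries, against 0, 1.42 and 0.419 TPM in the control libraries (log2 fold change 4.87 ± 0.30 (SE), adjusted p = 1.8e-06 from limma) and was at or near 0 in the control libraries. The collagenase Mmp8 averaged 54.6 ± 9.72 TPM in QJHTD lungs and 1.01 ± 0.255 TPM in control lungs (SD, n = 3 each). The interleukin-1 decoy receptor Il1r2 averaged 37.6 ± 4.26 TPM in QJHTD lungs and 1.49 ± 0.227 TPM in control lungs. Summed over the list, the level was 14594 to 22109.6 TPM in QJHTD libraries, 19254 to 35316 TPM in model libraries and 451 to 1559 TPM in control libraries. Ltf, lactoferrin, was the exception to the separation, with 708, 1241 and 1186 TPM in the QJHTD libraries, against 97.8, 133 and 1148 TPM in the control libraries, of which C3 lay among the QJHTD libraries, and its call was neither scaling-independent nor kept with any library but C3 left out (adjusted p up to 0.155).

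Genes of recruited macrophages were higher for 20 of 22 members and lower for 1 (median 2.88). Cd68, a lysosomal glycoprotein of macrophages, had 453, 439 and 372 TPM in the QJHTD libraries, against 26.2, 21.6 and 24.3 TPM in the control libraries (log2 fold change 4.07 ± 0.11 (SE), adjusted p = 4.9e-08 from limma). Its 3 control libraries lay close together and far below. Apoe, the lipid carrier, averaged 14110.3 ± 3307 TPM in QJHTD lungs and 1262 ± 66.7 TPM in control lungs (SD, n = 3 each). Trem2, a lipid-sensing receptor, averaged 199 ± 41.5 TPM in QJHTD lungs and 10.2 ± 1.46 TPM in control lungs. Gpnmb, a glycoprotein of lipid-laden macrophages, averaged 326 ± 93.6 TPM in QJHTD lungs and 6.35 ± 1.95 TPM in control lungs. The complement subunit C1qb and the fatty acid binding protein Fabp5 rose by 2.94 and 2.81. The lower member was the scavenger receptor Cd36, which capillary endothelium also expresses, at 202, 191 and 156 TPM in the QJHTD libraries, against 424, 420.5 and 447 TPM in the control libraries (log2 fold change −1.24 ± 0.094 (SE), adjusted p = 6.8e-06 from limma). Exceptions to a list's direction, such as Cd36 and Ltf, and some defining markers, such as Ly6g, were picked after their values were seen, here and below.

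Genes of resident alveolar macrophages did not move in 1 direction, with 5 of 16 higher and 6 lower (median 0.086, −0.19 in the deposited TPM), and 7 higher and 5 lower after median-ratio rescaling. Atp6v0d2, a proton pump subunit, and Abcg1, a sterol exporter, rose by 2.49 and 1.76. The fatty acid binding protein Fabp1 fell by 3.13 on the log2 scale, and Car4, which capillary endothelium also expresses, to 57.9 ± 12.1 TPM in QJHTD lungs against 369 ± 9.60 TPM in control lungs (SD, n = 3 each). Dendritic cell genes likewise divided: 6 of 13 were higher and 4 lower. Clec9a, a receptor of conventional type 1 dendritic cells, had 3.76, 5.38 and 4.83 TPM in the QJHTD libraries, against 22.9, 18.5 and 18.2 TPM in the control libraries (log2 fold change −1.88 ± 0.20 (SE), adjusted p = 4.4e-05 from limma). Cd209a, a lectin of the other conventional subset, had 1.29, 2.24 and 2.54 TPM in the QJHTD libraries, against 18.1, 16.1 and 11.5 TPM in the control libraries (log2 fold change −2.43 ± 0.22 (SE), adjusted p = 2.1e-05 from limma). In both the groups lay apart with the QJHTD libraries low. Irf8, a transcription factor shared with B cells and monocytes, went the other way and averaged 67.6 ± 12.6 TPM in QJHTD lungs and 24.0 ± 2.09 TPM in control lungs (SD, n = 3 each).

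Lymphoid genes were higher as a group. All 16 plasma cell genes tested were higher (median 2.59, 2.80 above all genes), each scaling-independent. Jchain, which joins IgA and IgM into polymers, was among the most abundant of all genes in exposed lungs and averaged 17948 ± 3787 TPM in QJHTD, 17305 ± 2251 in model and 277 ± 138 in control lungs (SD, n = 3 each). Mzb1, a chaperone of antibody assembly, had 1241, 827 and 1151 TPM in the QJHTD libraries, against 19.2, 12.8 and 13.9 TPM in the control libraries (log2 fold change 6.04 ± 0.19 (SE), adjusted p = 9.1e-08 from limma). Tnfrsf17, the survival receptor BCMA of plasma cells, had 30.2, 25.4 and 22.5 TPM in the QJHTD libraries, against 1.43, 1.09 and 1.39 TPM in the control libraries (log2 fold change 3.54 ± 0.14 (SE), adjusted p = 2.5e-07 from limma). Of B cell genes 13 of 15 were higher (median 1.89), including Cd79a, a subunit of the B cell receptor, by 3.30. The B lineage factors Pax5 and Ebf1 were not called, with adjusted p of 0.354 and 0.26 from limma.

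Among T cell genes 13 of 15 were higher (median 1.31). Ctla4, an inhibitory receptor of activated and regulatory T cells, averaged 10.5 ± 1.16 TPM in QJHTD lungs and 0.769 ± 0.253 TPM in control lungs (SD, n = 3 each). The costimulatory receptor Icos averaged 12.2 ± 2.12 TPM in QJHTD lungs and 1.55 ± 0.0647 TPM in control lungs, and Cd28 rose by 2.14. Cd8a and Cd8b1 were not called (adjusted p = 0.299 and 0.264, limma). Cytotoxic lymphocyte genes did not move together: 3 of 9 were higher, 1 lower, and Q2 was the highest QJHTD library in 9 of them. Without Q2, 3 were higher and 3 lower, and the median was 0.10 against 0.40 with it. Gzmb, granzyme B, had 9.43, 59.2 and 17.0 TPM in the QJHTD libraries, against 2.56, 2.55 and 2.72 TPM in the control libraries, with Q2 far above Q1 and Q3 (log2 fold change 2.64 ± 0.51 (SE), adjusted p = 0.0018 from limma). Ncr1, the natural killer cell receptor NKp46, fell to 1.55 ± 1.04 TPM in QJHTD lungs, against 4.63 ± 1.83 TPM in control lungs (SD, n = 3 each).

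Vascular genes were lower almost throughout. Of 23 endothelial genes 22 were lower and 1 higher (median −1.77, −1.55 relative to all genes), and all 15 lung capillary genes were lower (median −2.17). Tmem100, which is induced by BMP signalling in endothelium, had 37.2, 34.9 and 47.6 TPM in the QJHTD libraries, against 508, 572 and 455 TPM in the control libraries (log2 fold change −3.65 ± 0.20 (SE), adjusted p = 9.9e-07 from limma). Cldn5, the claudin of endothelial tight junctions, had 74.1, 76.5 and 105 TPM in the QJHTD libraries, against 647, 634 and 579.5 TPM in the control libraries (log2 fold change −2.87 ± 0.12 (SE), adjusted p = 3.2e-07 from limma). The angiopoietin receptor Tek had 21.7, 18.5 and 21.4 TPM in the QJHTD libraries, against 135, 142 and 120.1 TPM in the control libraries (log2 fold change −2.63 ± 0.10 (SE), adjusted p = 1.8e-07 from limma). In each of these the QJHTD libraries were alike and well below the controls. The junction gene Cdh5 and the widely used marker Pecam1 fell less, to 69.1 ± 3.88 and 123.04 ± 4.57 TPM in QJHTD lungs, against 225 ± 19.1 and 388 ± 26.9 TPM in control lungs. The higher member was Ackr1, a chemokine-binding receptor of venules, with 4.76, 6.04 and 7.14 TPM in the QJHTD libraries, against 0.869, 0.310 and 0.867 TPM in the control libraries (log2 fold change 2.06 ± 0.20 (SE), adjusted p = 3.1e-05 from limma). Summed levels of the endothelial list were 1123 to 1311 TPM in QJHTD libraries, 962 to 1012 TPM in model libraries and 5560.2 to 6198 TPM in control libraries, and what part these changes in cell type lists have in the changes of other genes was not tested.

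Receptors and enzymes that set vessel tone were lower in the same libraries, 18 of 20 (median −1.53). Ednrb, an endothelin receptor, had 5.65, 4.06 and 5.05 TPM in the QJHTD libraries, against 56.3, 39.0 and 47.1 TPM in the control libraries (log2 fold change −3.03 ± 0.23 (SE), adjusted p = 7.3e-06 from limma). Ramp2, the adrenomedullin co-receptor, had 113, 116 and 163 TPM in the QJHTD libraries, against 920.4, 1122 and 894 TPM in the control libraries (log2 fold change −2.91 ± 0.18 (SE), adjusted p = 2.2e-06 from limma). The natriuretic peptide receptor Npr1 and the guanylate cyclase subunit Gucy1b1 fell by 2.21 and 1.69 on the log2 scale. Ace, which converts angiotensin I to its active form, averaged 134 ± 10.9 TPM in QJHTD lungs, against 368 ± 74.7 TPM in control lungs (SD, n = 3 each). The prostaglandin receptor Ptger4, which leukocytes also carry, was the 1 member that was higher (0.88, adjusted p = 1.5e-04, limma).

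BMP and Notch signalling, which pattern vessels and airways, had mostly lower genes as well. Of 22 BMP and TGF-beta genes 16 were lower and 5 higher (median −0.95). The ligand Bmp6 had 6.44, 7.20 and 8.51 TPM in the QJHTD libraries, against 72.6, 67.5 and 62.4 TPM in the control libraries (log2 fold change −3.04 ± 0.14 (SE), adjusted p = 4.6e-07 from limma). The inhibitory Smad6, itself a target of BMP signalling, had 17.0, 15.4 and 19.7 TPM in the QJHTD libraries, against 128, 161 and 131 TPM in the control libraries (log2 fold change −2.94 ± 0.13 (SE), adjusted p = 3.0e-07 from limma). The groups were far apart in both. Inhba, the activin A subunit, rose to 7.42 ± 1.35 TPM in QJHTD lungs against 0.732 ± 0.146 TPM in control lungs. Of 13 Notch genes 12 were lower and 0 higher (median −1.57). The endothelial Notch ligand Dll4 had 12.4, 12.6 and 12.8 TPM in the QJHTD libraries, against 54.7, 51.6 and 49.5 TPM in the control libraries (log2 fold change −1.96 ± 0.080 (SE), adjusted p = 2.6e-07 from limma), with little spread in either group. The Notch target Hey1 had 11.8, 13.2 and 15.5 TPM in the QJHTD libraries, against 91.1, 80.2 and 67.0 TPM in the control libraries (log2 fold change −2.47 ± 0.15 (SE), adjusted p = 1.7e-06 from limma). Wnt genes were lower for 11 of 19, and Sfrp1, a secreted Wnt antagonist, was the 1 that was higher. It had 44.0, 35.7 and 38.6 TPM in the QJHTD libraries, against 5.42, 5.34 and 4.60 TPM in the control libraries (log2 fold change 2.72 ± 0.16 (SE), adjusted p = 1.5e-06 from limma).

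**Figure D3:**
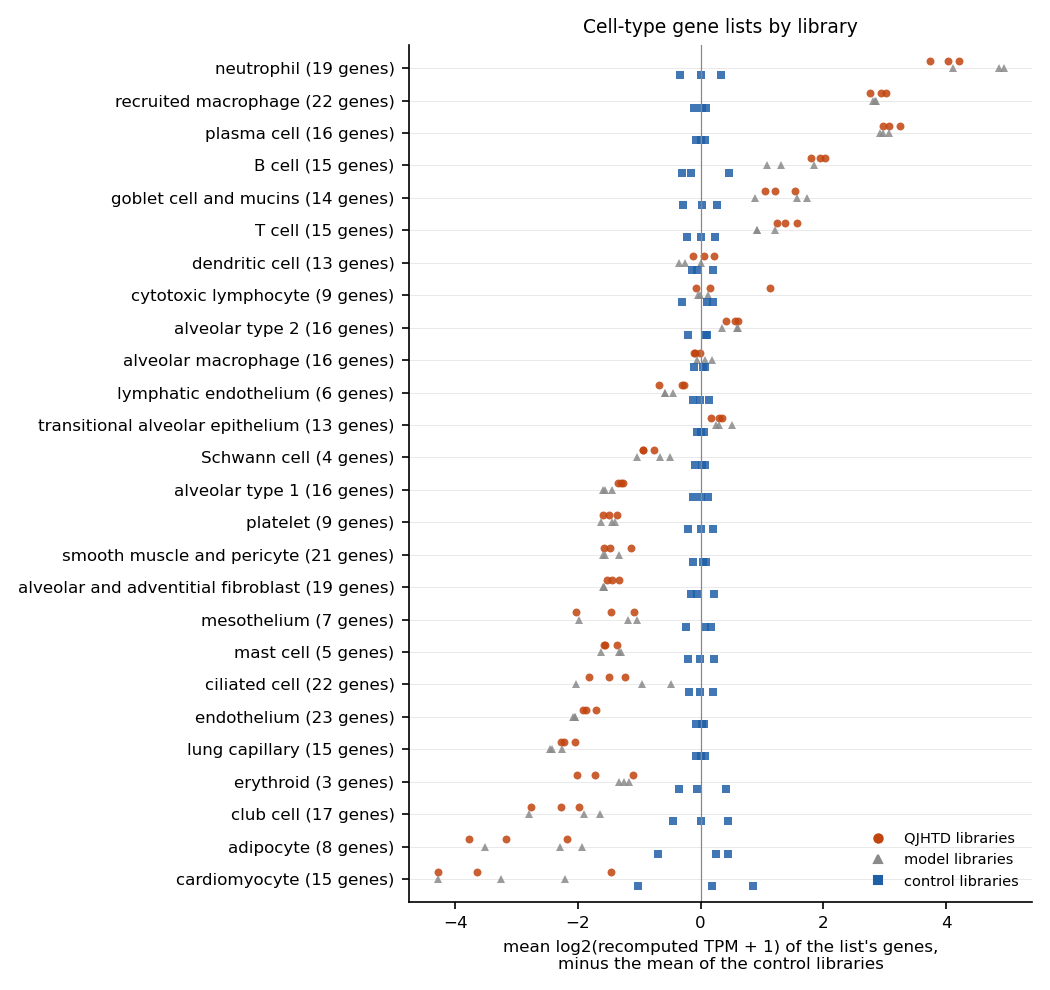
Mean log2(recomputed TPM + 1) over the tested genes of each cell type list, minus the mean of the control libraries, with 1 point per QJHTD, model and control library and the number of genes in brackets. By the medians of single-gene fold changes, neutrophil (median 3.95), recruited macrophage (2.88) and plasma cell (2.59) genes were the furthest above controls. Cardiomyocyte (−3.49), adipocyte (−3.03), club cell (−2.19), erythroid (−2.17, of 3 genes tested) and lung capillary (−2.17) genes were the furthest below.

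Alveolar type 1 genes were lower, and type 2 genes were mostly higher or not called. Type 1 genes were lower for 15 of 16 (median −1.26). Hopx, a transcriptional cofactor of type 1 cells, had 231, 261 and 271 TPM in the QJHTD libraries, against 966, 1059.8 and 842 TPM in the control libraries (log2 fold change −1.90 ± 0.10 (SE), adjusted p = 1.0e-06 from limma), again without overlap. Rtkn2, another gene of type 1 cells, fell by 1.92 on the log2 scale. The growth factor Vegfa, by which type 1 cells support capillaries, fell to 139.5 ± 6.96 TPM in QJHTD lungs against 593 ± 71.1 TPM in control lungs. Pdpn, also found on lymphatic vessels and macrophages, was not called (adjusted p = 0.0703, limma). Type 2 genes were higher for 8 of 16 and lower for 1, of which 4 higher calls and no lower call were scaling-independent. Sftpd, a surfactant collectin of innate defence, had 2067, 2259 and 1955 TPM in the QJHTD libraries, against 723, 981 and 719 TPM in the control libraries (log2 fold change 1.39 ± 0.14 (SE), adjusted p = 3.4e-05 from limma). Scd1, a desaturase of surfactant lipid synthesis, averaged 636 ± 21.5 TPM in QJHTD lungs and 203 ± 20.9 TPM in control lungs (SD, n = 3 each). Sftpc, the surfactant protein particular to type 2 cells, was the lower member (log2 fold change −0.74 ± 0.17 (SE), adjusted p = 0.0041 from limma), with the values given above, while Sftpa1 and Sftpb were not called (adjusted p = 0.106 and 0.0763, limma).

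Genes of the transitional epithelium that lines injured alveoli gave 4 higher and 4 lower members of 13 (median −0.23, but 0.13 with Scgb1a1 kept in the total). The lower members numbered 2 without Q1, 2 after median-ratio rescaling, 1 with Scgb1a1 kept in and 6 in the deposited TPM, and 1 lower and 4 higher calls were scaling-independent. Cldn4, a claudin induced in injured alveolar epithelium, was higher at 23.9 ± 1.97 TPM in QJHTD lungs and 8.38 ± 2.10 TPM in control lungs (SD, n = 3 each). The keratin Krt7 was lower at 201 ± 19.5 TPM in QJHTD lungs and 343 ± 56.8 TPM in control lungs. Tight junction genes were lower for 14 of 19 and higher for Cldn2, Cldn4 and Cldn1. The scaffold Tjp1 and occludin, Ocln, averaged 40.1 ± 3.604 and 15.6 ± 2.31 TPM in QJHTD lungs, against 95.2 ± 15.96 and 32.7 ± 2.14 TPM in control lungs (SD, n = 3 each). Sodium channel subunits of airspace fluid clearance were lower, and Scnn1b had 23.003, 25.3 and 21.4 TPM in the QJHTD libraries, against 75.9, 88.7 and 84.1 TPM in the control libraries (log2 fold change −1.79 ± 0.11 (SE), adjusted p = 1.6e-06 from limma). Scnn1g fell by 1.28 on the log2 scale.

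Airway secretory and ciliated genes were lower, and more variable. Of 17 club cell genes 14 were lower (median −2.19). Cyp2f2, the club cell P450 that activates naphthalene, had 340.1, 611 and 402 TPM in the QJHTD libraries, against 4932, 5458 and 6300.1 TPM in the control libraries (log2 fold change −3.66 ± 0.37 (SE), adjusted p = 3.7e-05 from limma). Aldh1a1, a retinal dehydrogenase, had 175, 237 and 222 TPM in the QJHTD libraries, against 1734, 2082 and 2146 TPM in the control libraries (log2 fold change −3.23 ± 0.27 (SE), adjusted p = 1.2e-05 from limma). Both were low in every QJHTD library. Scgb3a1, a secretoglobin of the upper airway, had 2842, 4715 and 2297 TPM in the QJHTD libraries, against 808, 2066 and 2997 TPM in the control libraries and was not called, the groups overlapping (log2 fold change 0.87 ± 0.48 (SE), adjusted p = 0.14 from limma). Of 22 ciliated cell genes 20 were lower (median −1.64). Tppp3, a tubulin-binding protein, had 136, 206 and 202 TPM in the QJHTD libraries, against 813, 701 and 828 TPM in the control libraries (log2 fold change −2.12 ± 0.31 (SE), adjusted p = 3.2e-04 from limma). Q1 was the lowest QJHTD library in 19 ciliated and 13 club cell genes. Without Q1, 19 ciliated genes (median −1.49) and 14 club cell genes (median −2.08) were lower.

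Mucus genes were mostly higher. Of 14 goblet cell and mucin genes 9 were higher and 2 lower (median 1.4003). The anion exchanger Slc26a4, pendrin, had 29.6, 32.1 and 25.5 TPM in the QJHTD libraries, against 1.22, 0.605 and 0.673 TPM in the control libraries (log2 fold change 4.05 ± 0.20 (SE), adjusted p = 5.4e-07 from limma). The gel-forming mucin Muc5b had 14.96, 31.2 and 14.9 TPM in the QJHTD libraries, against 2.52, 4.15 and 3.95 TPM in the control libraries (log2 fold change 2.17 ± 0.34 (SE), adjusted p = 5.6e-04 from limma). Muc5ac, the mucin of goblet cells, had 2.89, 8.39 and 3.13 TPM in the QJHTD libraries, against 0.304, 0.502 and 0.942 TPM in the control libraries (log2 fold change 1.77 ± 0.33 (SE), adjusted p = 0.0015 from limma). In both mucins Q2 was the highest QJHTD library, and all QJHTD libraries exceeded all controls. Spdef, the transcription factor of goblet cells, was not called (adjusted p = 0.519, limma).

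Fibroblast and smooth muscle genes were lower, and matrix genes went both ways. Alveolar and adventitial fibroblast genes were lower for 16 of 19 (median −1.52) and smooth muscle and pericyte genes for 19 of 21 (median −1.48). Tcf21, a transcription factor of lipid-bearing alveolar fibroblasts, had 22.4, 23.4 and 29.6 TPM in the QJHTD libraries, against 207, 147 and 141 TPM in the control libraries (log2 fold change −2.65 ± 0.16 (SE), adjusted p = 1.6e-06 from limma). The methyltransferase Inmt had 423, 411 and 583 TPM in the QJHTD libraries, against 4229, 3414 and 3048 TPM in the control libraries (log2 fold change −2.92 ± 0.15 (SE), adjusted p = 8.5e-07 from limma). Collagen genes were higher for 9 and lower for 7 of 21, against 5 higher and 9 lower in the deposited TPM and 12 higher and 4 lower with Scgb1a1 kept in. Col1a1, the main fibrillar collagen, had 150.2, 147 and 174 TPM in the QJHTD libraries, against 58.9, 43.6 and 46.1 TPM in the control libraries (log2 fold change 1.65 ± 0.15 (SE), adjusted p = 1.8e-05 from limma). Col15a1, of basement membrane zones, had 28.7, 23.2 and 27.7 TPM in the QJHTD libraries, against 7.51, 6.14 and 8.09 TPM in the control libraries (log2 fold change 1.74 ± 0.12 (SE), adjusted p = 3.9e-06 from limma). In both collagens the groups lay apart with the QJHTD libraries high. Col4a4 and Col4a5, of the mature alveolar basement membrane, fell by 1.42 and 1.32 on the log2 scale (adjusted p = 1.6e-05 and 2.9e-05, limma). Elastic fibre genes divided 6 higher to 8 lower of 19, with a median of −0.018 that turned to 0.20 after median-ratio rescaling, 0.082 after quantile scaling, 0.34 with Scgb1a1 kept in (10 higher and 5 lower), 0.069 without C1 and 0.012 without Q2. The lower share was near the 40.9% over all genes. The median over all genes moved with the scaling too, from −0.22 to −0.014, −0.10 and 0.12 under the first 3 of these. The latent TGF-beta binding proteins went apart, with Ltbp2 higher (1.28) and Ltbp4 lower (−1.94).

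Heart muscle and fat genes were also lower. Lung samples can hold them through the muscle sleeve of pulmonary veins or through attached tissue. Of 15 cardiomyocyte genes 14 were lower (median −3.49), and of 8 adipocyte genes all were (median −3.03). Actc1, cardiac actin, had 5.46, 7.48 and 33.4 TPM in the QJHTD libraries, against 101, 161 and 201 TPM in the control libraries (log2 fold change −3.598 ± 0.59 (SE), adjusted p = 6.8e-04 from limma). The fat hormone Adipoq had 0.231, 0.736 and 3.02 TPM in the QJHTD libraries, against 14.9, 28.5 and 33.5 TPM in the control libraries (log2 fold change −3.63 ± 0.57 (SE), adjusted p = 5.2e-04 from limma). The QJHTD libraries were all below the controls in both but differed several-fold among themselves. Q3 was the highest QJHTD library in all 15 cardiomyocyte genes. Summed heart muscle levels ranged over 78.6 to 817 TPM in QJHTD, 76.4 to 385 TPM in model and 1162 to 3767 TPM in control libraries. Without Q1, 13 cardiomyocyte genes (median −2.94) were lower, and without Q3 14 (median −4.30). Platelet genes were lower for 8 of 9. The platelet chemokine Ppbp had 1.62, 1.49 and 1.68 TPM in the QJHTD libraries, against 20.9, 30.4 and 23.3 TPM in the control libraries (log2 fold change −3.30 ± 0.19 (SE), adjusted p = 1.5e-06 from limma), and the groups did not overlap. Mast cell genes were lower for 4 of 5, mesothelial genes for 5 of 7 and lymphatic endothelial genes for 3 of 6, while higher ones numbered 0, 0 and 2 in that order.

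**Figure D4:**
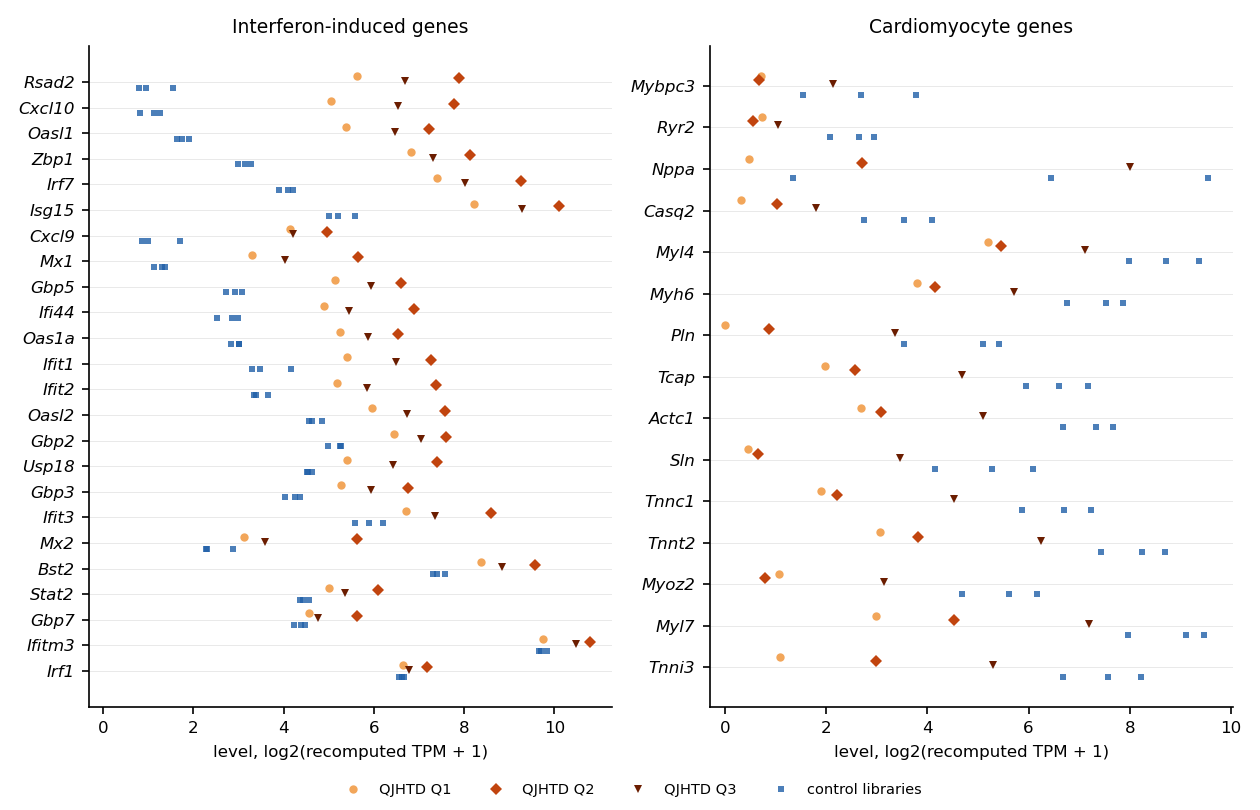
Levels, as log2(recomputed TPM + 1), of 24 of the 25 interferon-induced genes (left) and cardiomyocyte genes (right) in each of the 3 QJHTD libraries (marked apart) and in the control libraries. Q2 is the highest and Q1 the lowest QJHTD library in all 25 interferon-induced genes, and Q3 is the highest in all 15 cardiomyocyte genes.

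Inflammatory mediators were higher in most of their lists. Chemokines were higher for 25 of 32 and lower for 2 (median 2.82). The neutrophil attractant Cxcl2 had 146, 98.2 and 138 TPM in the QJHTD libraries, against 0.261, 1.64 and 0.748 TPM in the control libraries (log2 fold change 6.14 ± 0.27 (SE), adjusted p = 3.3e-07 from limma). Ccl3, which attracts monocytes and T cells, had 216, 189 and 255 TPM in the QJHTD libraries, against 2.01, 2.01 and 2.80 TPM in the control libraries (log2 fold change 6.08 ± 0.15 (SE), adjusted p = 3.8e-08 from limma). Ccl8, a ligand of receptors on monocytes, had 391, 531 and 354 TPM in the QJHTD libraries, against 11.1, 7.59 and 14.5 TPM in the control libraries (log2 fold change 5.16 ± 0.22 (SE), adjusted p = 2.9e-07 from limma). All 3 chemokines were low in every control library. Cxcl13 and Ccl19, which organize B and T cell zones of lymphoid tissue, averaged 191 ± 29.1 and 65.1 ± 12.5 TPM in QJHTD lungs, against 15.2 ± 4.58 and 4.18 ± 0.573 TPM in control lungs (SD, n = 3 each). The membrane-bound chemokine Cx3cl1 and Ccl17 were the lower members, at −1.35 and −1.41.

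In the interleukin-1, interleukin-6 and TNF axes, which the study discusses, 17 of 24 genes were higher and 3 lower. Il1b had 440.4, 277 and 482 TPM in the QJHTD libraries, against 12.7, 17.5 and 13.1 TPM in the control libraries (log2 fold change 4.67 ± 0.22 (SE), adjusted p = 4.7e-07 from limma). Tnf had 50.04, 62.9 and 48.6 TPM in the QJHTD libraries, against 1.45, 0.738 and 2.42 TPM in the control libraries (log2 fold change 4.48 ± 0.22 (SE), adjusted p = 6.0e-07 from limma). Il6 had 4.01, 2.80 and 4.31 TPM in the QJHTD libraries, against 0.478, 0.0295 and 0.105 TPM in the control libraries (log2 fold change 1.97 ± 0.21 (SE), adjusted p = 5.5e-05 from limma) and so was the least abundant of the 3. All 3 cytokines lay above every control library in each QJHTD library. Inhibitors of these axes rose with them: beside Il1rn and Il1r2, the NF-kappaB brake Tnfaip3 averaged 68.4 ± 5.58 TPM in QJHTD lungs and 10.6 ± 1.75 TPM in control lungs (SD, n = 3 each). The JAK-STAT inhibitor Socs3 averaged 130.1 ± 24.9 TPM in QJHTD lungs and 19.97 ± 3.04 TPM in control lungs. Of the receptors, Tnfrsf1b, the TNF receptor enriched on leukocytes, rose by 3.66, while Tnfrsf1a (0.19, adjusted p = 0.107, limma) and Il1r1 (−0.28, adjusted p = 0.0748) were not called. The shared receptor subunit Il6st was lower without being scaling-independent, and the receptor Lifr fell to 8.11 ± 1.98 TPM in QJHTD lungs against 23.5 ± 3.71 TPM in control lungs, and the cytokine Il11 was lower at −1.43. Without C1, Q1 or Q3 the adjusted p of Il11 was 0.0545, 0.0509 and 0.0557 in that order (limma).

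Toll-like receptor and NF-kappaB genes were higher for 27 of 35 (median 1.21) and lower for the kinase Ikbkb, whose call was not scaling-independent and was lost without C1 (adjusted p = 0.0515, limma) and without Q3 (adjusted p = 0.0575). Cd14, the endotoxin co-receptor, had 412, 266 and 393 TPM in the QJHTD libraries, against 33.2, 45.3 and 50.4 TPM in the control libraries (log2 fold change 3.02 ± 0.22 (SE), adjusted p = 5.0e-06 from limma). The endotoxin receptor Tlr4 itself averaged 19.7 ± 1.70 TPM in QJHTD lungs and 10.5 ± 0.923 TPM in control lungs (SD, n = 3 each). Tlr2, which senses lipoproteins, averaged 55.2 ± 4.59 TPM in QJHTD lungs and 6.90 ± 1.31 TPM in control lungs. Tlr13, a mouse sensor of bacterial ribosomal RNA, had the largest change of the list, 3.42 ± 0.14 (SE). Rela, the transactivating subunit, was not called here (−0.10, adjusted p = 0.321, limma) and was higher with Scgb1a1 kept in the total (0.26), whereas the precursor Nfkb2 and the inhibitor Nfkbie rose by 1.41 and 2.46. Epithelial Tlr5 and Tlr3 were not called (adjusted p = 0.455 and 0.184). MAP kinase genes gave 5 higher and 9 lower of 20, but 7 higher and 4 lower with Scgb1a1 kept in, 7 higher and 7 lower after median-ratio rescaling and 2 higher and 13 lower in the deposited TPM, and 2 higher and 4 lower calls were scaling-independent. The first of these counts were near the 22.7% higher and 40.9% lower over all genes, whose balance also turned with the scaling. Mapk12, the muscle-enriched p38 gamma, averaged 15.3 ± 1.96 TPM in QJHTD lungs and 56.7 ± 3.84 TPM in control lungs (SD, n = 3 each). Mapk3, which encodes ERK1, averaged 192 ± 9.85 TPM in QJHTD lungs and 289.8 ± 6.47 TPM in control lungs.

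Sensors and executors of the inflammasome were higher for 11 of 14 with none lower (median 1.89). Nlrp3 had 21.04, 15.1 and 19.6 TPM in the QJHTD libraries, against 1.38, 1.11 and 0.628 TPM in the control libraries (log2 fold change 3.27 ± 0.18 (SE), adjusted p = 9.8e-07 from limma). Its adaptor Pycard had 69.3, 72.7 and 83.4 TPM in the QJHTD libraries, against 8.44, 9.24 and 13.5 TPM in the control libraries (log2 fold change 2.76 ± 0.16 (SE), adjusted p = 1.3e-06 from limma). No QJHTD library of either gene came near a control library. Gsdmd, the pore-forming substrate of caspase-1, was not called (adjusted p = 0.491, limma). Acute-phase proteins were higher for 15 of 16 (median 2.09). Orm2 and Orm1, the alpha-1 acid glycoproteins, averaged 85.1 ± 7.51 and 373 ± 12.3 TPM in QJHTD lungs, against 0.324 ± 0.165 and 8.46 ± 3.41 TPM in control lungs. Haptoglobin, Hp, was the exception, at 2044, 1782 and 2077 TPM in the QJHTD libraries, against 2060.0, 1860.0 and 2305 TPM in the control libraries (adjusted p = 0.651, limma). Complement genes were higher for 13 of 18, led by the receptor C3ar1 at 4.12. Factor B, Cfb, had 405, 809 and 481 TPM in the QJHTD libraries, against 25.9, 39.6 and 49.2 TPM in the control libraries (log2 fold change 3.83 ± 0.27 (SE), adjusted p = 4.8e-06 from limma).

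Genes of itaconate, arginine and nitric oxide metabolism were higher for all 11 tested, 8 of them scaling-independent (median 2.00). Without Q1, 9 of the 11 were higher, and without Q2 or without Q3, 10 were. Arginase 1, Arg1, had 213, 64.3 and 139 TPM in the QJHTD libraries, against 1.27, 1.402 and 1.11 TPM in the control libraries (log2 fold change 5.79 ± 0.35 (SE), adjusted p = 1.7e-06 from limma). Arginase 2, Arg2, had 98.9, 80.2 and 87.4 TPM in the QJHTD libraries, against 10.5, 14.7 and 10.9 TPM in the control libraries (log2 fold change 2.79 ± 0.13 (SE), adjusted p = 4.3e-07 from limma). The inducible nitric oxide synthase Nos2, which competes with them for arginine, averaged 50.8 ± 15.01 TPM in QJHTD lungs and 3.22 ± 0.441 TPM in control lungs (SD, n = 3 each). All 3 enzymes were above every control library in every QJHTD library, and Arg1 varied most among the QJHTD libraries.

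Interferon-induced genes were higher for 24 of 25 (median 2.66), with a graded order of the QJHTD libraries. Isg15, a ubiquitin-like modifier, had 299, 1103 and 617 TPM in the QJHTD libraries, against 35.9, 47.1 and 31.3 TPM in the control libraries (log2 fold change 3.93 ± 0.41 (SE), adjusted p = 4.5e-05 from limma). Zbp1, a nucleic acid sensor, had 112, 279 and 159 TPM in the QJHTD libraries, against 6.89, 7.79 and 8.66 TPM in the control libraries (log2 fold change 4.29 ± 0.28 (SE), adjusted p = 2.7e-06 from limma). In both genes the order was Q2, Q3, Q1, with each above the controls. Without Q2, 23 of 25 were higher (median 2.25). All 17 class I antigen presentation genes were higher (median 1.37), with B2m at 6168 ± 1221 TPM in QJHTD, 5749.7 ± 266 in model and 1711 ± 148 in control lungs (SD, n = 3 each), and 11 of 12 class II genes (median 0.99). Q2 was the highest QJHTD library in 16 class I and 11 class II genes too. Without Q2, 16 class I genes (median 1.20) and 10 class II genes (median 0.90) were higher. Ctss, the cathepsin that trims the class II invariant chain and is abundant in macrophages, had 2297, 2430.2 and 1803 TPM in the QJHTD libraries, against 167, 166 and 167 TPM in the control libraries (log2 fold change 3.69 ± 0.11 (SE), adjusted p = 6.6e-08 from limma).

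Proliferation genes were higher for 25 of 26 (median 2.24). Mki67 had 40.2, 36.2 and 47.5 TPM in the QJHTD libraries, against 4.05, 3.69 and 2.17 TPM in the control libraries (log2 fold change 3.32 ± 0.19 (SE), adjusted p = 1.2e-06 from limma). Rrm2, of the reductase that makes deoxynucleotides, had 43.0, 37.9 and 50.3 TPM in the QJHTD libraries, against 3.29, 4.28 and 2.62 TPM in the control libraries (log2 fold change 3.35 ± 0.15 (SE), adjusted p = 3.6e-07 from limma). The exception was cyclin D1, Ccnd1, which fell to 51.1 ± 4.30 TPM in QJHTD lungs against 90.9 ± 6.32 TPM in control lungs. Endoplasmic reticulum folding genes were higher for 17 of 23 (median 0.68), and the degradation factor Edem1 had 245, 169 and 209 TPM in the QJHTD libraries, against 24.4, 28.5 and 22.04 TPM in the control libraries (log2 fold change 3.00 ± 0.14 (SE), adjusted p = 4.8e-07 from limma). The stress factors Atf4 and Ddit3 were the lower members (−0.26 and −0.37), neither scaling-independent. Without Q2 the adjusted p of Atf4 was 0.0559, and Ddit3 lost its call without any 1 library but C1 or Q2 (adjusted p up to 0.158, limma). Lysosomal genes were higher for 24 of 25, Ctsb and Ctsd by 2.82 and 3.18, and glycolysis genes for 16 of 19. The lactate transporter Slc16a3 averaged 90.4 ± 17.2 TPM in QJHTD lungs and 10.9 ± 2.84 TPM in control lungs (SD, n = 3 each). Genes of the mitochondrial respiratory chain encoded in the nucleus were lower for 11 of 24, of which 1 was scaling-independent, and their median of −0.16 turned to 0.20 with Scgb1a1 kept in (13 higher and 1 lower) and 0.059 after median-ratio rescaling (6 higher and 4 lower). The lower share was near the 40.9% over all genes, while 1 gene was higher, against 22.7% over all genes. The median over all genes turned likewise from −0.22 to 0.12 and −0.014, and the list median was 0.056 above it in the scaling used here.

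**Figure D5:**
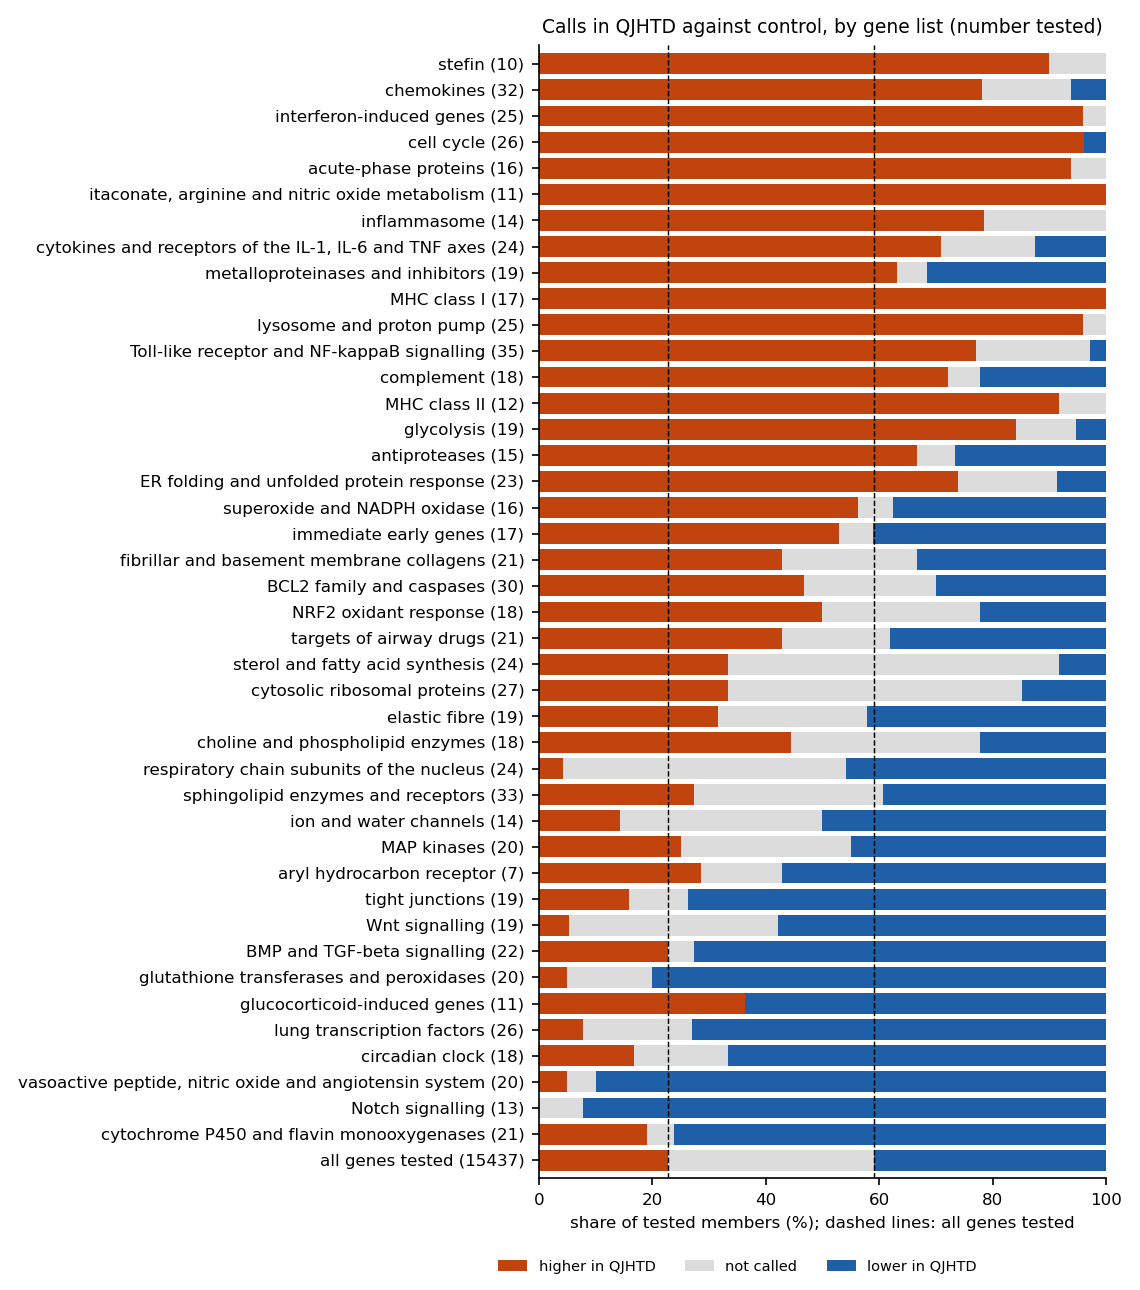
Share of the tested members of each gene list (%, number tested in brackets) called higher, not called or called lower in QJHTD than in control lungs at an adjusted p under 0.05 from limma, with dashed lines at the shares over all genes tested. Interferon-induced (24 of 25), class I presentation (17 of 17) and cell cycle genes (25 of 26) are almost wholly higher, and Notch (12 of 13) and vasoactive genes (18 of 20) almost wholly lower.

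Enzymes that detoxify foreign compounds were lower. Cytochrome P450 and flavin monooxygenase genes were lower for 16 of 21 (median −1.73). Cyp4b1 had 80.8, 90.1 and 86.0 TPM in the QJHTD libraries, against 595, 844 and 645 TPM in the control libraries (log2 fold change −2.99 ± 0.13 (SE), adjusted p = 3.4e-07 from limma). Cyp1a1, the classical target of the aryl hydrocarbon receptor and of smoke hydrocarbons, had 1.41, 2.40 and 2.27 TPM in the QJHTD libraries, against 24.3, 29.3 and 27.3 TPM in the control libraries (log2 fold change −3.22 ± 0.18 (SE), adjusted p = 1.0e-06 from limma). Cyp1b1, another target of that receptor, rose to 20.9 ± 0.908 TPM in QJHTD lungs against 6.0003 ± 0.122 TPM in control lungs. Glutathione transferases and peroxidases were lower for 16 of 20. Gstm1 had 114, 113 and 122 TPM in the QJHTD libraries, against 888, 911 and 1120.2 TPM in the control libraries (log2 fold change −3.05 ± 0.14 (SE), adjusted p = 3.8e-07 from limma). The groups lay far apart in Cyp4b1, Cyp1a1 and Gstm1.

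Genes of the oxidant response regulator NRF2 were mixed, 9 higher and 4 lower of 18 (median 0.24, −0.039 with 5 higher and 7 lower in the deposited TPM). Hmox1, heme oxygenase 1, had 241, 219.9 and 262 TPM in the QJHTD libraries, against 41.4, 54.9 and 49.7 TPM in the control libraries (log2 fold change 2.29 ± 0.11 (SE), adjusted p = 6.2e-07 from limma). Nqo1, the quinone reductase, had 4.74, 4.01 and 4.83 TPM in the QJHTD libraries, against 13.1, 10.8 and 14.8 TPM in the control libraries (log2 fold change −1.33 ± 0.16 (SE), adjusted p = 1.0e-04 from limma). These NRF2 targets thus lay on opposite sides of the controls without overlap. The subunits of the phagocyte NADPH oxidase Cybb, Ncf1 and Ncf4 rose by 2.81, 2.70 and 2.91. On the scavenging side, Sod2 was higher at 1.04, while Sod1, catalase (Cat) and the peroxiredoxin Prdx6 fell, Prdx6 to 373 ± 36.6 TPM in QJHTD lungs against 2311 ± 167 TPM in control lungs (SD, n = 3 each).

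Proteases and their inhibitors were mostly higher. Of 19 metalloproteinase genes 12 were higher and 6 lower (median 1.50). Mmp12, the macrophage elastase, had 111, 108 and 101 TPM in the QJHTD libraries, against 7.51, 5.73 and 18.7 TPM in the control libraries (log2 fold change 3.37 ± 0.38 (SE), adjusted p = 7.8e-05 from limma). Mmp9, gelatinase B, had 86.1, 51.1 and 70.8 TPM in the QJHTD libraries, against 2.82, 5.62 and 3.66 TPM in the control libraries (log2 fold change 3.81 ± 0.30 (SE), adjusted p = 7.8e-06 from limma). The inhibitor Timp1 had 143, 126 and 217 TPM in the QJHTD libraries, against 10.8, 9.83 and 10.8 TPM in the control libraries (log2 fold change 3.79 ± 0.26 (SE), adjusted p = 3.6e-06 from limma). None of the 3 overlapped between QJHTD and control libraries. Timp3, an inhibitor bound to matrix, was lower at −0.82. Among antiproteases 10 of 15 were higher, including A2m, alpha-2-macroglobulin (3.85), and 4 lower.

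Genes of the BCL2 family and caspases, which the study discusses as apoptosis, were higher for 14 and lower for 9 of 30 (median 0.31), against 11 higher and 12 lower in the deposited TPM (median 0.029) and 19 higher and 5 lower with Scgb1a1 kept in. The death-promoting Bid had 22.7, 20.7 and 22.8 TPM in the QJHTD libraries, against 4.86, 4.77 and 4.62 TPM in the control libraries (log2 fold change 2.00 ± 0.10 (SE), adjusted p = 6.6e-07 from limma), and the groups did not overlap. Of the same kind, Bak1 and Bcl2l11 rose by 1.65 and 1.89, and so did the survival genes Bcl2a1b and Birc3, by 2.75 and 1.72. Bcl2 was not called (−0.34, adjusted p = 0.113, limma), and neither was Bax (−0.050, adjusted p = 0.641), which was higher with Scgb1a1 kept in the total (0.31). Casp6, Xiap and Bcl2l2 fell, Bcl2l2 to 13.5 ± 1.86 TPM in QJHTD lungs against 32.6 ± 3.07 TPM in control lungs.

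Sphingolipid genes, the other subject of the study, were higher for 9 and lower for 13 of 33, a balance that turned to 15 higher and 6 lower after median-ratio rescaling, 15 higher and 6 lower with Scgb1a1 kept in and 14 higher and 10 lower after quantile scaling. The median of −0.20 turned to 0.0051 after median-ratio rescaling and to 0.13 with Scgb1a1 kept in. The median over all genes turned likewise from −0.22 to −0.014 and 0.12, and the list median was 0.018 above it in the scaling used here. The calls stand beside 22.7% higher and 40.9% lower over all genes, and the list as a whole lay close to these. Among enzymes of breakdown, Sgpl1, the lyase of sphingosine 1-phosphate, had 96.4, 81.0 and 75.5 TPM in the QJHTD libraries, against 28.9, 30.1 and 27.4 TPM in the control libraries (log2 fold change 1.51 ± 0.10 (SE), adjusted p = 2.7e-06 from limma). The acid ceramidase Asah1 had 98.1, 83.3 and 74.3 TPM in the QJHTD libraries, against 56.9, 50.8 and 49.7 TPM in the control libraries (log2 fold change 0.68 ± 0.11 (SE), adjusted p = 5.7e-04 from limma). The alkaline ceramidase Acer2 went the other way, with 32.3, 28.4 and 26.9 TPM in the QJHTD libraries, against 125, 187 and 134 TPM in the control libraries (log2 fold change −2.29 ± 0.16 (SE), adjusted p = 4.0e-06 from limma). In none of the 3 did QJHTD and control libraries overlap. The sphingosine kinase Sphk1, the exporter Spns2 and the endothelial receptor S1pr1 all fell, S1pr1 to 37.3 ± 2.40 TPM in QJHTD lungs against 109.7 ± 11.1 TPM in control lungs (SD, n = 3 each), while the receptor S1pr2 rose by 0.79. The subunits of serine palmitoyltransferase, which opens the synthesis, moved apart with small changes, Sptlc2 at 0.35 and Sptlc1 at −0.36, and neither was scaling-independent. Sptlc2 lost its call without C2, C3, Q1 or Q2 (adjusted p up to 0.0873, limma).

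Choline and phospholipid genes had no stable direction, with 8 higher and 4 lower of 18 but 3 higher and 8 lower in the deposited TPM, 5 higher and 6 lower with the predicted mitochondrial copies out, 5 higher and 4 lower without Q1 and 5 higher and 5 lower without Q2. Their median of −0.063 turned to 0.15 after median-ratio rescaling, 0.071 after quantile scaling, 0.28 with Scgb1a1 kept in, 0.19 among genes with a mean of at least 5 TPM, 0.061 without C3 and 0.020 without Q1. The median over all genes moved with the scaling too, from −0.22 to −0.014, −0.10 and 0.12 under the first 3 of these. In the scaling used here the list median was 0.16 above that of all genes. Pla2g7, which degrades platelet-activating factor and is made by macrophages, had 252, 235 and 233 TPM in the QJHTD libraries, against 17.6, 18.2 and 14.3 TPM in the control libraries (log2 fold change 3.78 ± 0.094 (SE), adjusted p = 3.8e-08 from limma). The choline kinases Chka and Chkb, the first step of phosphatidylcholine synthesis, were lower at −1.3997 and −1.07. Sterol and fatty acid synthesis genes had 8 higher and 2 lower of 24, but 3 higher and 6 lower in the deposited TPM (median −0.21) and 17 higher and 1 lower with Scgb1a1 kept in. Cytosolic ribosomal protein genes had 9 higher and 4 lower of 27, but 3 higher and 13 lower in the deposited TPM (median −0.26) and 18 higher and 0 lower with Scgb1a1 kept in.

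Rhythmic and hormone-induced genes were lower for the most part. Of 18 clock genes 12 were lower (median −1.09). The repressor Nr1d1 had 29.5, 38.5 and 33.0 TPM in the QJHTD libraries, against 131, 92.5 and 139 TPM in the control libraries (log2 fold change −1.80 ± 0.17 (SE), adjusted p = 2.8e-05 from limma). Cry2, of the repressor complex, had 9.64, 11.1 and 10.4 TPM in the QJHTD libraries, against 28.6, 37.4 and 29.0 TPM in the control libraries (log2 fold change −1.51 ± 0.12 (SE), adjusted p = 9.3e-06 from limma). Bhlhe40 and Bhlhe41 rose by 1.19 and 1.55, and the activator Arntl was not called (adjusted p = 0.956, limma). The hour at which each lung was taken is not given in the sources used here. Among 11 genes induced by glucocorticoids 4 were higher and 7 lower. Klf9, a transcription factor, had 16.3, 15.4 and 15.6 TPM in the QJHTD libraries, against 55.8, 71.9 and 56.1 TPM in the control libraries (log2 fold change −1.89 ± 0.13 (SE), adjusted p = 4.4e-06 from limma). The metallothionein Mt2, which metals and cytokines also induce, had 245, 230.0 and 259.8 TPM in the QJHTD libraries, against 59.8, 52.5 and 70.5 TPM in the control libraries (log2 fold change 2.00 ± 0.12 (SE), adjusted p = 2.0e-06 from limma). Of genes that airway drugs act on, 9 of 21 were higher and 8 lower, against 6 higher and 9 lower in the deposited TPM. Alox5ap, which serves leukotriene synthesis in leukocytes, averaged 214 ± 26.7 TPM in QJHTD lungs and 51.3 ± 9.21 TPM in control lungs (SD, n = 3 each). Lung transcription factors were lower for 19 of 26 (median −1.06). Foxf1, of capillaries and fibroblasts, had 22.2, 23.5 and 25.7 TPM in the QJHTD libraries, against 159, 164 and 143 TPM in the control libraries (log2 fold change −2.65 ± 0.12 (SE), adjusted p = 3.4e-07 from limma). Hoxa5, of lung mesenchyme, fell by 1.94 on the log2 scale, and Cebpb, which also acts in myeloid cells, was higher by 1.42.

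Few genes were called between QJHTD lungs and the untreated model lungs. The comparisons of QJHTD and of model lungs with controls share the 3 control libraries, so their values are set side by side. Against controls, neutrophil genes had a median of 3.95 in QJHTD and 4.52 in model lungs, and recruited macrophage genes 2.88 in QJHTD and 2.85 in model lungs. Plasma cell genes had a median of 2.59 in QJHTD and 2.51 in model lungs, and cell cycle genes 2.24 in QJHTD and 1.75 in model lungs. For endothelial genes it was −1.77 in QJHTD and −2.04 in model lungs, and for ciliated cell genes −1.64 in QJHTD and −1.33 in model lungs. In the direct comparison of QJHTD with model lungs, 962 genes (6.23%) were higher and 438 (2.84%) lower at an unadjusted p under 0.05, and 2 were called at an adjusted p under 0.05. The excess of higher genes at an unadjusted p depended on the scaling and on 1 library, with 619 higher and 656 lower after median-ratio rescaling, 648 higher and 655 lower after quantile scaling, and 741 higher and 753 lower without M2. The filter used QJHTD and control libraries only, so a gene present only in model lungs was not tested and cannot be among the lower ones. Of the 3510 genes higher than in controls, 557 had such an unadjusted p, 311 of them above and 246 below the model level. Of the 6307 genes lower than in controls, 465 had such a p, 365 of them above and 100 below the model level.

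The 2 called genes were higher in QJHTD lungs and were listed at 0 in all 3 control libraries. Both therefore passed the filter through the QJHTD libraries alone, so their direction was partly set by the filter. The assembled locus MSTRG.8758 had 4.59, 5.83 and 5.78 TPM in the QJHTD libraries and was listed at 0 in all 3 model libraries (adjusted p = 4.2e-04, limma). The predicted gene Gm16550 had 144, 44.2 and 28.5 TPM in the QJHTD libraries, against 0, 1.29 and 0 TPM in the model libraries (adjusted p = 0.0292, limma). Among genes with an established name, the stefin Csta3 had 17.2, 11.7 and 22.001 TPM in the QJHTD and 45.8, 55.8 and 42.7 TPM in the model libraries, and was listed at 0 in the control libraries. Clec4e, the receptor Mincle for mycobacterial glycolipid, had 104, 90.8 and 115 TPM in the QJHTD libraries, 152, 152 and 161 TPM in the model libraries and 1.16, 1.11 and 1.18 TPM in the control libraries. Both had lower values in every QJHTD library than in any model library, at unadjusted p of 4.7e-05 and 1.1e-04 and adjusted p of 0.145 and 0.213 from limma, so neither was called.

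At an unadjusted p, 7 of 19 neutrophil genes and 8 of 10 stefin genes were lower in QJHTD than in model lungs and none was higher, beside 2.84% lower and 6.23% higher over all genes in this scaling and with M2, and no gene of either list was called after adjustment. As reads may be divided among near-identical stefin genes, the 8 may not be separate differences. Among NRF2 genes 10 of 18 were lower and 1 higher at an unadjusted p, and among interleukin-1, interleukin-6 and TNF genes 6 of 24 were lower and 1 higher. Q2 was the lowest QJHTD library in 14 of the 19 neutrophil and 8 of the 10 stefin genes. It was also the lowest in 12 of the 18 NRF2 genes and 14 of the 24 interleukin-1, interleukin-6 and TNF genes. Higher at an unadjusted p were 9 of 15 T cell genes, 10 of 23 endothelial genes, 9 of 26 cell cycle genes and 15 of 27 ribosomal protein genes, again with none called after adjustment. All these list counts are for this scaling and with M2, on which the excess of higher genes depended, and were not made under the others. Within these lists Q3 was the highest QJHTD library in 25 cell cycle, 22 ribosomal protein and 18 endothelial genes, and Q2 in 13 T cell genes. Il1b averaged 399.8 ± 108 TPM in QJHTD, 586 ± 97.9 TPM in model and 14.4 ± 2.65 TPM in control lungs (SD, n = 3 each), and the difference of QJHTD from model lungs had an unadjusted p of 0.0278 (adjusted p = 0.486, limma). Tnf averaged 53.8 ± 7.85 TPM in QJHTD, 72.2 ± 7.005 TPM in model and 1.54 ± 0.845 TPM in control lungs, with an unadjusted p of 0.0893 (adjusted p = 0.592). An adjusted p above the threshold does not show that the levels were equal.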

How the data were processed

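Lung RNA of 9 libraries, 3 from each of QJHTD, model and control lungs, was made into libraries with a kit for messenger RNA. The submitters' processing notes name fastp and RSEM without versions, and the authors deposited a table of TPM per gene, which is normalized for gene length and library size and keeps no read depth. The labels name GRCh38.p6, a human assembly, while the gene IDs are mouse, and gene positions here are from GENCODE M21 (GRCm38). The authors' columns of group means were used in no result.

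Genes at 1 TPM or more in at least 3 of 6 QJHTD and control libraries were kept. Receptor segments, Scgb1a1, hemoglobin and mitochondrially encoded genes were removed and TPM rescaled to a total of 1000000 in each library. Log2(TPM + 1) was fitted with limma 3.58.1 (R 4.3.3) over all 9 libraries with 1 mean per group and an intensity trend, and p-values were adjusted over all 15437 genes by Benjamini-Hochberg, with calls at an adjusted p under 0.05. The fit was tested on simulated data. Shares of a library were compared by the exact permutation test. Promoters were RefSeq sequences.

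Members and gene lists were chosen with earlier results of these data known. Genes named were the 12 largest rises and 12 largest falls among called genes without overlap, with a group mean reaching 5 TPM on the higher side, leaving out predicted and assembled genes. To these came the 4 list members with the smallest p, every tested member of the interleukin-1, interleukin-6 and TNF, Toll-like receptor, BCL2 and sphingolipid lists, and the 10 called genes with the smallest p against model. A further 55 list members, which are defining markers, known family members or exceptions to a list's direction, were named after their values were seen. Alternatives were the scalings, a pseudocount of 0.1, other filters, no intensity trend, a fit of only the groups compared, a replicate block and leaving out each library. Keeping Scgb1a1 in the total and leaving out M2 and Q1 together were added after seeing the data. Some of the genes that the naming rule gives are not reported here.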

Additional observations from a re-analysis of the deposited data

How the results depend on the processing

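The number of genes called in QJHTD against control lungs was 8714 to 9938 with 1 library left out, against 9817, and that of genes changed at least 2-fold 4050.0 to 4204. With Scgb1a1 kept in the total, 5663 genes were higher and 3579 lower, and 10 named genes changed sign: Rela 0.26, Bax 0.31, Cflar 0.34, Bad 0.11, Cers5 0.089, Bcl2l1 0.087, Cycs 0.053, Sptssa 0.032, Sgpp1 0.0031 and Sptlc1 0.0021 on the log2 scale. QJHTD against model gave 1 call with a pseudocount of 0.1, with no filter, with quantile scaling or with no intensity trend, and 0 among genes with a mean of at least 5 TPM (limma), beside 962 higher and 438 lower genes at an unadjusted p under 0.05 over the full table. With 1 library left out it gave 1 to 5 calls, the 5 being without M2. The causes were not tested. Same-numbered QJHTD and control libraries did not deviate together (correlations −0.0033, −0.071 and 0.14), and a replicate block gave 9629 calls against controls and, against model, 1 higher and 1 lower gene in place of 2 higher ones. Of 382 named results, 10 lost and 15 gained their call in the deposited TPM, 13 lost and 12 gained it after median-ratio rescaling, and 0 to 9 lost it with 1 library left out. With depth unknown, values near 0 TPM cannot be given a limit of detection.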
